A study of Mus musculus with 6 samples.

Results

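Open chromatin was described at the 10 genes of de novo lipogenesis, the pathway by which adipocytes turn sugar carbon into fatty acids: Acly, Acaca, Acacb, Fasn, Me1, Elovl6, Scd1, Scd2, Srebf1 and Mlxipl. The genes were chosen by name, and all 10 were found among the 21951 protein-coding genes of the GENCODE annotation of the mouse genome build mm10. Peaks of ATAC-seq, in which a transposase cuts and tags accessible DNA, were taken where the summit lay from 50 kb before to 50 kb after the gene. Overlapping peaks of the 6 libraries were joined into regions, and 258 of 194610 regions of the genome lay at these genes.

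The libraries came from primary adipocytes of male wild-type C57BL/6J mice of 3 to 4 weeks, 2 libraries for each of 3 kinds of culture. Beige and white cultures were grown from the stromal vascular fraction (SVF, the non-adipocyte cells of fat) of inguinal fat, and brown cultures from that of brown adipose tissue. Beige and brown cells were induced with 5 μM dexamethasone, 0.5 mM isobutyl methylxanthine, insulin, 1 nM of the thyroid hormone T3 and 1 μM of the PPARG agonist rosiglitazone, and were then kept in insulin, T3 and rosiglitazone. White cells were induced with 1 μM dexamethasone, 0.5 mM isobutyl methylxanthine and insulin, without T3 and rosiglitazone, and were then kept in insulin. The labels give 5 μg/ml insulin for all 3 media, whereas the study's methods give other doses for beige and white cells and do not describe the brown cultures. All cells were collected at day 7. As far as stated, beige and white cultures therefore differ in the dexamethasone dose, T3 and rosiglitazone. Brown and beige cultures differ in the depot of origin, and brown and white cultures in both the medium and the depot. The study's list of libraries names the beige and white ATAC-seq libraries and no brown one. Whether the brown libraries were made and sequenced with the others is not stated, so depot and any such difference cannot be told apart. The share of SVF cells that had become adipocytes was not measured here. The study calls its ATAC-seq replicates biological, without saying whether the libraries of a group came from separate mice.

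The pathway starts from citrate, which ATP citrate lyase (Acly) splits into cytosolic acetyl-CoA, while malic enzyme (Me1) supplies NADPH. The acetyl-CoA carboxylases Acaca and Acacb make malonyl-CoA, and fatty acid synthase (Fasn) joins these units into palmitate. Elovl6 lengthens palmitate, and the stearoyl-CoA desaturases Scd1 and Scd2 put in a double bond. Srebf1 and Mlxipl encode the transcription factors SREBP-1 and ChREBP, which drive these genes in response to insulin and to glucose. Both factors have alternative first exons, and the short ChREBP-β form starts at an upstream promoter that ChREBP itself can activate.

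A peak list gives no read counts, so peaks were compared by presence and by rank. The study's supplement lists fewer mapped reads, and a lower share of reads mapped, for each beige than for either white library, and depth for brown is not given in the sources used here. The part of depth in the differences below was not tested. The lists held 109143 to 127490 peaks, called at a q value under 0.05. The percentile of a peak is the percent of peaks in its own library with a lower fold over local background, so that 100 is the highest; it orders peaks within a library and is no level of accessibility. Where a promoter held several summits, the strongest was taken as the one of highest -log10 q, the significance of the peak, and its percentile is given by fold. With 2 libraries in a group, the smallest two-sided p of an exact permutation test is 0.333, and 0.0667 for 4 libraries against 2. Conditions were therefore compared by their values, with no test, and counts over the 10 genes are given beside the same share over all regions or all promoters.

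Sequences are shown first for the elements on which the results turn, from mm10 and in the direction of transcription of the gene, 5′ to 3′. Capitals mark matches to consensus motifs searched on both strands: the sterol response element of SREBP (SRE, TCACNCCAC), the E-box (CACGTG), the C/EBP site (TTGCNNAA), the NFY site (CCAATNAG), the GC box of SP and KLF factors (GGGCGG), the ETS site (CNGGAAG), and, by name alone, the paired E-boxes of ChREBP (ChoRE), DR1 of PPARG with RXRA, DR4 of LXR or the thyroid hormone receptor, and the glucocorticoid response element. A ChoRE can hold an E-box, and the other motifs were searched independently. A match is a description of letters and no evidence of binding.

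The upstream start of Mlxipl and the promoters of Scd1 and Srebf1 are shown because the place or presence of their summits differed between conditions. The 200 bases before the upstream Mlxipl start (chr5:135089690-135089889, + strand) held an E-box and 2 GC boxes. An E-box was found in 5.51% and a GC box in 38.0% of the 54329 protein-coding transcript starts over the same 200 bases. The 300 bases before the outermost Scd1 start (chr19:44407880-44408179, - strand) held no match to the motifs as searched, and the 300 bases before those (chr19:44408180-44408479) held an NFY site and an ETS site. The inner 300 bases do hold CCAAT, the first letters of the NFY consensus, without the last letters that were asked for. The 200 bases before the strongest Srebf1 start (chr11:60220605-60220804, - strand) held 3 GC boxes.
Mlxipl upstream start, -200 to -1: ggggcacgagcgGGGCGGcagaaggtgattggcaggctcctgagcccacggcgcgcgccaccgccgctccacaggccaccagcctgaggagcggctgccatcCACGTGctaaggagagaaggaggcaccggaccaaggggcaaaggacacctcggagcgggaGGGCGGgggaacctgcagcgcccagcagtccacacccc
Scd1, outer 300 bases: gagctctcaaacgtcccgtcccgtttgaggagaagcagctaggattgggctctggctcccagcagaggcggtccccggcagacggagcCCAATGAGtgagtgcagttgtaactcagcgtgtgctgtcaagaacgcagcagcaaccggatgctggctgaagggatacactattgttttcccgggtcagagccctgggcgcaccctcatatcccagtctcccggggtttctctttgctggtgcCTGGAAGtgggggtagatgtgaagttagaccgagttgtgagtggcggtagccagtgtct
Scd1, inner 300 bases: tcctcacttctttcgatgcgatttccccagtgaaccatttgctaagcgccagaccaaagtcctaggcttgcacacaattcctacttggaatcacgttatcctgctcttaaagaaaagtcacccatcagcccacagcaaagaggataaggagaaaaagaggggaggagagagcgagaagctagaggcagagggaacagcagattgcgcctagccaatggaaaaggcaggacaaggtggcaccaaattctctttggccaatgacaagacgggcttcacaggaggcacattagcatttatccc
Srebf1, -200 to -1: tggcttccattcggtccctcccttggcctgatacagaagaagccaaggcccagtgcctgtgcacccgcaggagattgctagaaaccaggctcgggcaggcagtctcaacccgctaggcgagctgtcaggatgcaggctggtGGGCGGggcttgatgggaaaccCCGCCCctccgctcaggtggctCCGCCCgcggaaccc

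Distal elements are shown from 100 bases before to 100 bases after their highest summit. The Fasn element 50.6 kb downstream of the start (chr11:120773869-120774069), the Acacb intron element at 10.9 kb (chr5:114157309-114157509) and the Acly element 25.0 kb upstream (chr11:100552938-100553138) had a peak in both beige and both brown libraries and in no white library. The Scd2 element 47.7 kb upstream (chr19:44245884-44246084) had one in beige alone, the Me1 element 14.5 kb upstream (chr9:86710331-86710531) in white alone and the Elovl6 element 125.0 kb downstream of the start (chr3:129657303-129657503) in brown alone. The Acaca intron element at 12.3 kb (chr11:84141859-84142059) had a peak in the 4 inguinal libraries and in no brown library. The Fasn window was soft-masked as repeat over 61.2% of its bases, against 0% in the Acacb and Acly windows shown here. Among elements described below but not shown, the share was 63.2% for Acaca at 114.1 kb. It was 58.2% for Acacb 12.3 kb upstream and 50.75% for Acly at 41.7 kb.
Fasn +50.6 kb: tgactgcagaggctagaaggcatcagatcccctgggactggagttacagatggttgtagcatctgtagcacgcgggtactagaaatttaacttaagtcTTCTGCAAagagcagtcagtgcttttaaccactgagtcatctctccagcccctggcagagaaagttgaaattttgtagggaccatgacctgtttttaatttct
Acacb +10.9 kb: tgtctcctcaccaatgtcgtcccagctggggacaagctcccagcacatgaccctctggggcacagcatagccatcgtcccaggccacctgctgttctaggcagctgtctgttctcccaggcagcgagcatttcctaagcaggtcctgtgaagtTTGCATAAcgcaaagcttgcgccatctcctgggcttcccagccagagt
Acly -25.0 kb: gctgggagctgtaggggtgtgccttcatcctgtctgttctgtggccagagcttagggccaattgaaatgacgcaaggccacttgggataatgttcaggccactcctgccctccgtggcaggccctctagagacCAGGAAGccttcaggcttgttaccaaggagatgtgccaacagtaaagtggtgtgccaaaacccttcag
Scd2 -47.7 kb: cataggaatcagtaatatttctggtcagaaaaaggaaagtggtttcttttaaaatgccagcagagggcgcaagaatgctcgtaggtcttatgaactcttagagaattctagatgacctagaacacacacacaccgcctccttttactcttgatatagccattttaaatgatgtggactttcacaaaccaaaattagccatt
Me1 -14.5 kb: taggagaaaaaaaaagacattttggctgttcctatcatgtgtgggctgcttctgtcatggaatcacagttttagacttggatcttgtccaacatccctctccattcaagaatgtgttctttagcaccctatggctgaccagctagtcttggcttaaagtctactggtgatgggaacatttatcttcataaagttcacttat
Elovl6 +125.0 kb: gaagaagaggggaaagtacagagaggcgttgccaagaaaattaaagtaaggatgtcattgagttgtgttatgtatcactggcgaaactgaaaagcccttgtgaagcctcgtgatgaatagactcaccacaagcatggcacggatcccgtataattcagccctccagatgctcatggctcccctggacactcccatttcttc
Acaca +12.3 kb: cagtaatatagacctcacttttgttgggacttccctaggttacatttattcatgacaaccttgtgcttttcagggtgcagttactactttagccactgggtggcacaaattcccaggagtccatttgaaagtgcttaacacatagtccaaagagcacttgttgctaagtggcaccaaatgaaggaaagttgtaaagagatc

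Further elements are shown because they held a rare motif, and were chosen after their values were seen. A region upstream of the first Srebf1 start (chr11:60222799-60222999) held an SRE, an E-box and a GC box within one such window, and an Elovl6 intron element at 4.0 kb (chr3:129536280-129536480) held an SRE. An Acacb intron element at 15.1 kb (chr5:114161548-114161748) held the one ChoRE match of all 258 regions, and an Elovl6 intron element at 50.3 kb (chr3:129582565-129582765) held a DR1.
Srebf1 -0.3 kb: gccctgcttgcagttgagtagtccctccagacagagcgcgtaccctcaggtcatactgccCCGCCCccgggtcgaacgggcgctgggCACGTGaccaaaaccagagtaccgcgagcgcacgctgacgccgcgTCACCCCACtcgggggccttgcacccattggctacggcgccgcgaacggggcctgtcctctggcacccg
Elovl6 +4.0 kb: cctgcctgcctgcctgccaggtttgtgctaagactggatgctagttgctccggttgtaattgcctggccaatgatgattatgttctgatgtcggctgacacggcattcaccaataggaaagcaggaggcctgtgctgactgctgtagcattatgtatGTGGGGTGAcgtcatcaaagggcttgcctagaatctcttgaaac
Acacb +15.1 kb: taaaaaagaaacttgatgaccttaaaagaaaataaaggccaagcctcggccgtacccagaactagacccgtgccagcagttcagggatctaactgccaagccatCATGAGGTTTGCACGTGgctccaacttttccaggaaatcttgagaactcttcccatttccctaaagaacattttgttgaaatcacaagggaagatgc
Elovl6 +50.3 kb: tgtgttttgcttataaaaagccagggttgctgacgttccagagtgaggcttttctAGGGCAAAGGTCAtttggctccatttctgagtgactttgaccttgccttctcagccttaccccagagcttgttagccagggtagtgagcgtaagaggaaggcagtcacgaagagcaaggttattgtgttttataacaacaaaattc

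Over all 258 regions the share with an SRE was 1.16%, against 0.967% of all 194610 regions, and that with an E-box was 4.65% against 3.91%. The NFY site was found in 6.59% against 2.88% and the GC box in 17.1% against 10.7%. The C/EBP site was found in 10.1% against 12.6%, and the ETS site in 20.5% against 20.3%. Of the 97 regions at these genes with a peak in all 6 libraries, 10 held an NFY site and 34 a GC box. Over all regions of that kind the shares were 3.88% and 21.6%. Of the 258 regions, 34 lay within 1 kb of a member start and 29 within 1 kb of another protein-coding gene's start. The part of such regions in the motif shares was not tested. A ChoRE was present in 1 of the 258 regions (0.388%, against 0.0709% of all regions) and a DR1 in 2 (0.775% against 0.233%). DR4 and the glucocorticoid response element were not found in these windows. They are rare in all regions too, at 0.0694% and 0.328%, so their absence here says little.

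All 10 genes had a promoter peak, meaning a summit within 1 kb of an annotated start, in every one of the 6 libraries. Of all protein-coding genes, 64.2% did so. The medians of the members' strongest promoter peaks lay at a percentile of 76.3 ± 4.2 in beige, 79.9 ± 4.0 in white and 82.5 ± 4.7 in brown (SD, n = 2 libraries), and the single libraries of the 3 conditions overlapped. In a bulk library, fewer cells with open chromatin and less accessibility per cell cannot be told apart. The medians over all genes with a promoter peak were 87.1 ± 1.0, 85.9 ± 1.9 and 88.9 ± 1.0, so the median lipogenic promoter ranked below the median promoter in each kind of culture. Acaca lay above the median of all genes in all 3, with condition means of 88.0 to 92.9 at the start used in each library, Acacb in beige and brown, and Me1 in white and brown. Ranked by -log10 q in place of fold, the medians of the members were 91.0, 89.8 and 92.2 against 93.3, 91.1 and 92.1 over all genes, so in brown they were no longer below. Of the 59 annotated start sites, 34 had a peak within 1 kb in all 6 libraries, 17 in none and 8 in some.

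**Figure D1:**
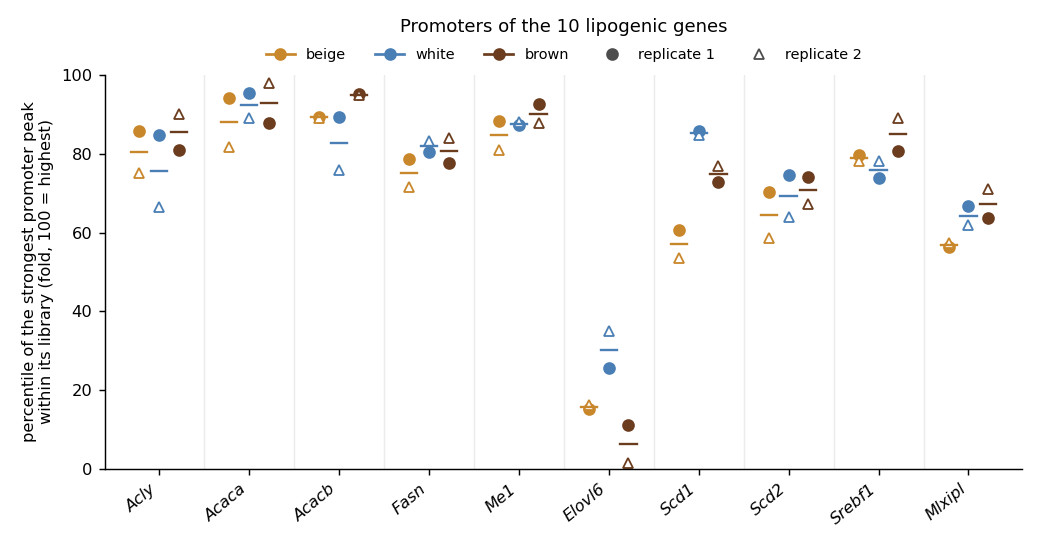
Percentile of the strongest promoter peak of each gene within its library (y axis, 0 to 100, by fold over local background) for the 10 genes (x axis); points are libraries, bars the mean of a condition. Scd1 lies at 53.5 to 60.6 in beige and 84.7 to 85.9 in white, and Elovl6 at 1.40 to 35.1 over all libraries.

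The percentiles of a promoter did not overlap between beige and white for 4 genes, all of them higher in white: Fasn, Elovl6, Scd1 and Mlxipl. Over all promoters, 19.9% were higher in white than beige in this sense and 28.3% were higher in beige than white, where the members had none. Acacb, Scd1, Srebf1 and Mlxipl were higher in brown than beige (background 33.1%) and Elovl6 was higher in beige than brown (17.8%). Acacb and Srebf1 were higher in brown than white (34.1%), and Elovl6 and Scd1 were higher in white than brown (15.1%).

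These calls depend on the measure that is ranked. By -log10 q, Scd1 alone of the 4 stayed higher in white than beige without overlap (background 17.4%), and Acacb, Srebf1 and Mlxipl were higher in beige than white (35.3%). Acaca, Acacb and Scd1 were then higher in brown than beige (15.2%) and Elovl6 higher in beige than brown (34.3%). Acacb and Mlxipl were higher in brown than white (28.6%), and Elovl6 and Scd1 again higher in white than brown (23.3%). Both measures thus gave Scd1 as highest in white and lowest in beige, Acacb as highest in brown, and Elovl6 as lowest in brown.

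Acly (chr11:100476353-100528000, - strand) gave promoter percentiles of 85.8 and 75.1 in beige, 84.8 and 66.6 in white and 81.1 and 90.2 in brown. The 3 groups overlapped, and the white replicates differed from each other more than the conditions did. An inner start of a protein-coding transcript had a peak 3.5 kb into the gene, at 40.4 and 35.0 in beige, 78.2 and 45.8 in white and 62.6 and 62.4 in brown. There both beige libraries lay below the other 4, and the white value was carried by the first replicate. In the same gene an intron element at 15.4 kb (chr11:100512310-100512756) ranked at 68.5 and 75.2 in beige and at 28.5 and 38.7 in brown, while the white libraries, at 28.5 and 68.0, spanned both.

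Elements of Acly with a peak in beige and brown but not in white lay at 41.7 kb in an intron (chr11:100486216-100486445) and 25.0 kb upstream inside Ttc25 (chr11:100552869-100553203). The intron element ranked at 55.0 and 72.6 in beige and 32.9 and 64.7 in brown, and the upstream element at 29.2 and 45.9 in beige and 20.6 and 43.0 in brown. Their lowest -log10 q in a library with a peak were 5.94 and 6.43, well inside the authors' threshold. Me1 (chr9:86581371-86695953, - strand) had a promoter peak at 88.5 and 81.0 in beige, 87.2 and 88.0 in white and 92.7 and 87.7 in brown, and these groups overlapped. Its element 14.5 kb upstream (chr9:86710313-86710617) was open in both white libraries and in no other, with percentiles of 49.6 and 54.2 and a lowest -log10 q of 6.91, the highest of the 3 regions open in white alone. It also had 18 of its 39 regions (46.2%) in 1 library alone, the most of the 10 genes, against 37.2% of all regions.

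The carboxylases had some of the highest promoter ranks. At the first start of Acaca (chr11:84129672-84401651, + strand), which makes malonyl-CoA for synthesis, the peak lay at 94.3 and 87.6 in beige, 95.8 and 89.2 in white and 93.7 and 98.0 in brown; this region is also within 1 kb of a start of the neighbouring gene Tada2a. A further promoter 49.9 kb into the gene ranked at 72.6 and 81.7 in beige, 95.5 and 64.0 in white and 87.9 and 90.5 in brown, with both brown libraries above both beige ones. The intron element at 68.5 kb (chr11:84197689-84198426) ranked at 91.6 to 99.0 in the 6 libraries.

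Acaca also had elements with a peak in the inguinal but not in the brown cultures. The intron element at 12.3 kb had percentiles of 57.5 and 82.2 in beige and 74.4 and 58.2 in white, and a second at 114.1 kb (chr11:84243664-84243898) had 25.6 and 58.8 in beige and 68.4 and 72.9 in white. Neither had a peak in a brown library.

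Acacb (chr5:114146535-114250761, + strand), whose product serves to restrain fatty acid oxidation at the mitochondrion, had its strongest promoter peak 29.3 kb inside the gene, at the start of a protein-coding transcript. The percentiles were 89.4 and 89.2 in beige, 89.4 and 75.9 in white and 95.1 and 95.1 in brown, so both brown libraries lay above all others. The outermost start ranked lower, at 53.8 and 65.6 in beige, 2.65 and 63.0 in white and 68.6 and 81.0 in brown, and the white replicates did not agree there. Near the end of the gene, at the start of a transcript with a retained intron (101.7 kb), the order turned: 82.9 and 86.0 in beige, 62.4 and 78.5 in white and 61.4 and 59.4 in brown.

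Acacb had 36 regions, the most after Me1. Of these, 5 had a peak in both beige libraries and no white one, against 4.5% of all regions. This was the highest count of the 10 genes, which had 18 such regions together. The intron element at 10.9 kb had a peak in both beige (44.0 and 27.4) and both brown libraries (59.5 and 36.3) and in no white library, with a lowest -log10 q of 8.53, and the element at 57.5 kb did likewise near the threshold, at a lowest -log10 q of 3.09. The element with the ChoRE at 15.1 kb had a peak in both beige libraries (8.16 and 16.1), in brown replicate 1 (4.99) and in no white library. An intron element at 59.8 kb was open in beige alone (8.24 and 16.5, lowest -log10 q 3.18). Its window was soft-masked as repeat over 93.5% of its bases. Upstream, inside the neighbouring gene Ung, an element at 12.3 kb was open in beige alone (9.29 and 8.45, lowest -log10 q 13.0) and one at 8.8 kb in white alone (4.70 and 2.46). These values lie among the lowest folds of the lists.

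Fasn (chr11:120805846-120824547, - strand) had a promoter peak at 78.7 and 71.5 in beige, 80.5 and 83.3 in white and 77.6 and 84.0 in brown. Both white libraries lay above both beige ones, but the lower white value was closer to the higher beige value than the beige replicates were to each other. Its open interval held separate summits close to the start, at -88 to -115, and inside the gene, at +353 to +400. In white the inner summit ranked above the outer one, at 80.5 and 83.3 against 64.4 and 63.2. In beige they were 78.7 and 69.9 against 75.0 and 71.5, and in brown 76.9 and 84.0 against 77.6 and 68.8, so replicates of these cultures went different ways.

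Around Fasn, the element 50.6 kb downstream of the start had a peak in both beige (45.9 and 21.0) and both brown libraries (49.9 and 37.0) and none in white, with a lowest -log10 q of 9.14. An element 26.3 kb upstream inside Ccdc57 (chr11:120850747-120850956) was open in beige alone, at 22.4 and 21.0. A little further upstream a region common to all libraries ranked at 64.6 and 38.0 in beige and 50.6 and 51.7 in white but at 6.08 and 13.6 in brown. The region with the widest gap between beige and white lay 62.1 kb downstream of the Fasn start (chr11:120762156-120763213), within 1 kb of a start of Hmga1b rather than of Fasn. It ranked at 79.5 and 78.1 in beige, 39.6 and 38.4 in white and 63.6 and 68.3 in brown, with no overlap among the 3 groups.

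Elovl6 (chr3:129532355-129638495, + strand) had the lowest promoter rank of the 10 genes. At its main start the peak lay at 15.1 and 16.2 in beige, 19.3 and 35.1 in white and 11.2 and 1.40 in brown. White was highest and brown lowest, with the peak of brown replicate 2 near the bottom of its list. With summits up to 3 kb from the start, brown lay above beige. A summit about 0.8 kb into the gene had a peak in both white libraries (25.5 and 33.4) and in beige replicate 2 (10.7), and in no brown library. The intron element at 4.0 kb with the SRE ranked far higher and in another order, at 78.9 and 78.6 in beige, 81.3 and 78.2 in white and 92.1 and 89.1 in brown. For Elovl6 the promoter and the nearby intron element thus gave brown as the lowest and as the highest group.

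About 50 kb into the gene Elovl6 held a cluster of elements that were absent from both white libraries. The element at 49954 bp (chr3:129582097-129582482) had a peak in both beige (21.8 and 32.8) and both brown libraries (30.3 and 33.4). The DR1 element at 50.3 kb had one in both beige libraries (16.6 and 48.1) and brown replicate 1 (11.8). A further one at 51.1 kb was open in beige alone (30.2 and 16.3). In contrast, the intron element at 88.6 kb had a peak in beige (27.9 and 38.8) and white (45.1 and 60.2) and in no brown library, and the element 125.0 kb from the start was open in brown alone (42.3 and 25.6).

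Scd1 (chr19:44394455-44407879, - strand), which makes oleate from stearate, showed the widest difference between conditions of any member promoter when ranked by fold within 1 kb of a start. Its strongest peak ranked at 60.6 and 53.5 in beige, 85.9 and 84.7 in white and 72.8 and 77.0 in brown. The groups did not overlap, with beige lowest and white highest. The means were 57.1 ± 5.0, 85.3 ± 0.8 and 74.9 ± 3.0 (SD, n = 2). A gap of at least 20 points between the nearest libraries, a cutoff not set in advance, was found with white above beige for Scd1. It was found for 59 of 14283 promoters in all (0.413%), and with beige above white for 128 (0.896%) and no member. These shares describe the gap and are no test of it. By -log10 q the Scd1 promoter ranked at 87.6 and 87.1 in beige, 93.2 and 94.8 in white and 90.9 and 91.1 in brown. The order was the same without overlap, but beige minus white narrowed from -28.2 to -6.67 points, and the widest difference was that of Elovl6, brown minus white, at -30.2. With summits up to 3 kb from a start it was Elovl6, beige minus white, at -50.9, and with basic protein-coding starts alone Acacb, brown minus white, at 42.0.

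The Scd1 summits also lay at different places, given here from the outermost start. In beige the strongest was inside the gene, at +368 and +364. In white it was upstream, at -471 and -470, and in brown it was near the start, at -47 and -7. In brown replicate 1 this choice is a near tie: the summit at -47 had a -log10 q of 89.7 and a percentile of 72.8, and that at -473 had 89.1 and 73.1, so by fold the upstream summit was the stronger. All 3 places held a summit in every library, so the difference is one of order within the promoter. The upstream summit ranked at 50.5 and 42.5 in beige, 85.9 and 84.7 in white and 73.1 and 63.6 in brown. The inner summit ranked at 60.6 and 53.5 in beige, 73.9 and 65.2 in white and 59.2 and 67.0 in brown. The upstream summit thus ranked above the inner one in both white libraries and below it in both beige libraries, and the brown replicates went different ways.

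Places were called different if the strongest summits lay within 100 bp of each other in each condition and at least 200 bp apart between conditions, a rule set after the Scd1 values were seen. Scd1 and Srebf1 met it for beige and white, against 3.29% of promoters, and for brown and white, against 2.93%. Scd1 alone met it for beige and brown (2.07%). With the summit of highest fold in place of highest -log10 q, an alternative also added after the values were seen, both genes met it for beige and white (3.32%), Srebf1 alone for brown and white (2.99%) and neither for beige and brown (2.24%).

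**Figure D2:**
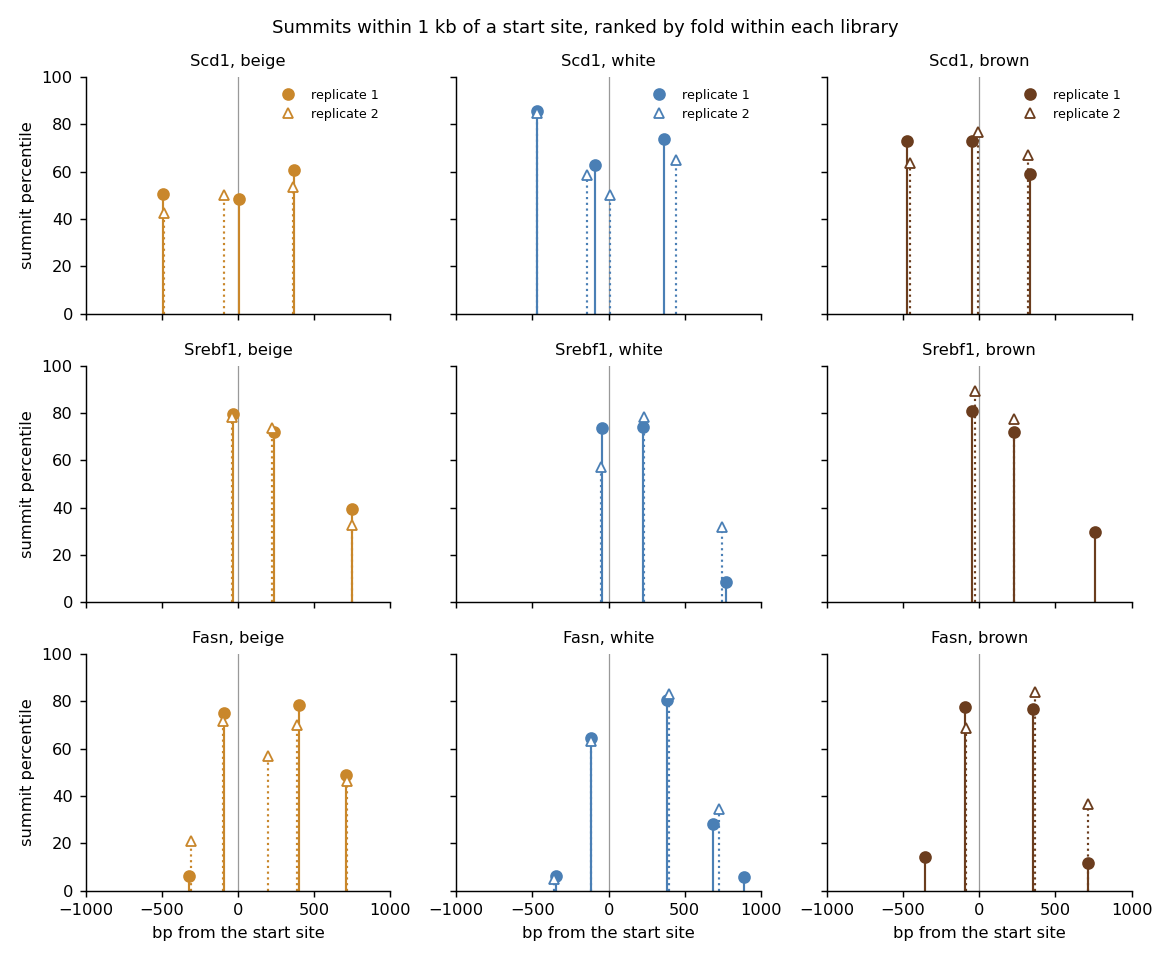
Percentile of every summit within 1 kb of a start (y axis) by its distance from that start in bp (x axis, direction of transcription; the start at 0), for Scd1, Srebf1 and Fasn in beige, white and brown; symbols are replicates. The highest Scd1 points of beige lie at +368 and +364, those of white at -471 and -470; brown replicate 1 is highest at -473, just above its summit at -47, and replicate 2 at -7.

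Downstream of Scd1 the nearest regions had beige lowest, as at the promoter, and those further away did not. The region 13.7 kb from the start, at the end of the gene (chr19:44393823-44394480), ranked at 14.8 and 5.84 in beige, 58.6 and 39.7 in white and 32.4 and 18.0 in brown. The next one at 18.2 kb ranked at 0.357 and 1.79 in beige, 35.5 and 14.3 in white and 5.50 and 18.6 in brown. Both beige libraries were below the other 4 in these regions, and white and brown did not overlap in the first of them. At 34.7 kb the percentiles were 65.7 and 54.5 in beige, 83.1 and 77.5 in white and 53.6 and 33.9 in brown, so brown was lowest. At 44.2 kb they were 94.8 and 93.1 in beige, 81.4 and 87.7 in white and 74.9 and 87.6 in brown, so beige was highest. Of the 11 regions of Scd1 with values in all beige and white libraries, 7 were higher in white than beige (63.6%, background 22.6%) and 2 higher in beige than white (18.2%, background 24.9%).

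Scd2 (chr19:44293674-44306864, + strand), a second stearoyl-CoA desaturase gene 87.6 kb from Scd1, had a promoter peak at 70.3 and 58.6 in beige, 74.7 and 64.0 in white and 74.2 and 67.2 in brown, and all groups overlapped. Its intron differed instead. At 1.8 kb (chr19:44295310-44295572) the percentiles were 5.25 and 7.18 in beige, 2.73 and 13.8 in white and 42.7 and 33.1 in brown. At 2.3 kb (chr19:44295814-44296080) they were 49.0 and 51.2 in beige, 42.4 and 33.5 in white and 59.6 and 64.6 in brown, so brown was highest in both elements. Scd2 had the largest number of regions with a peak in all 6 libraries, 14 of 22 (63.6%), against 30.2% of all regions. The windows of Scd1 and Scd2 shared no region.

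Srebf1 (chr11:60199089-60222581, - strand), the source of SREBP-1a and SREBP-1c, had 12 annotated starts, of which 4 had a peak in all libraries and 7 in none. The strongest promoter ranked at 79.7 and 78.1 in beige, 73.9 and 78.1 in white and 80.8 and 89.1 in brown. Brown was above the others, and beige and white overlapped; by -log10 q in place of fold, brown lay slightly below beige. Within it, the summit before the start, near -40, ranked above the one near +225 in beige, at 79.7 and 78.1 against 71.9 and 73.8, and in brown, at 80.8 and 89.1 against 72.2 and 77.5. In white the order was 73.6 and 57.0 against 73.9 and 78.1, which in the first white library is a difference of under 1 point.

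An inner Srebf1 start, 10.1 kb further into the gene, had a peak (chr11:60210049-60210750) at 72.3 and 73.6 in beige, 62.3 and 19.9 in white and 78.9 and 74.8 in brown. White was lower than beige and brown there, though its replicates were far apart. The region about 1 kb downstream of that start ranked at 48.6 and 28.2 in beige, 8.17 and 7.80 in white and 30.2 and 54.9 in brown, again with both white libraries lowest. The upstream region with the SRE and E-box had a peak in all libraries, at 44.7 and 40.4 in beige, 32.7 and 31.3 in white and 17.9 and 52.8 in brown; beige was above white, and the brown replicates spanned both.

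Mlxipl (chr5:135089890-135138382, + strand) had its main promoter peak at 56.3 and 57.4 in beige, 66.8 and 61.8 in white and 63.7 and 71.0 in brown, with both beige libraries lowest. In beige replicate 2 the summit taken was a separate one at +968 from the main start, and that at -55 ranked at 57.3. By -log10 q in place of fold the order of beige and white was the opposite. The upstream start, 17 kb before the others and annotated for a noncoding transcript (Mlxipl-210), differed from it. It had a peak in beige replicate 1 (43.7, -log10 q 7.68), beige replicate 2 (20.9, -log10 q 4.29) and brown replicate 2 (26.3, -log10 q 5.61), and none in either white library or in brown replicate 1. The summits lay at -19, -20 and 0 bp from the start, over the same bases. An intron element at 11.3 kb (chr5:135101028-135101362) was present in all libraries and was highest in beige, at 65.7 and 61.6, against 42.2 and 46.1 in white and 48.2 and 55.5 in brown, with no overlap between beige and either of the others.

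Counted over the 10 genes, 97 of 258 regions (37.6%) had a peak in all 6 libraries, against 30.2% of all regions, and 81 (31.4%) had one in 1 library, against 37.2%. In beige and not white, that is in both beige and no white library, there were 18 regions (6.98%, background 4.5%), and in white and not beige 4 (1.55%, background 1.98%). In brown and not white there were 10 (3.88%, background 2.94%) and in white and not brown 8 (3.1%, background 3.48%). In beige and not brown there were 13 (5.04%, background 4.8%) and in brown and not beige 4 (1.55%, background 1.56%). The share in beige and not white is above that of the genome, and the others are nearer to it. The count in beige and not white depends on how many libraries are asked for: it was 43 without beige replicate 1, 36 without beige replicate 2 and 29 without white replicate 2, where the remaining library alone decides. The share over all regions was not computed for these counts.

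Of the 18 regions in beige and not white, 6 (2.33%) had a peak in both brown libraries too, against 1.25% of all regions: 2 each at Acly and Acacb and 1 each at Fasn and Elovl6. Without white replicate 1 there were 10 such regions and without white replicate 2 there were 12, for which no share over all regions was computed. A peak in both beige and both white libraries and in no brown one was found in 4 regions (1.55%, background 1.16%), 2 of them at Acaca and 1 each at Elovl6 and Srebf1. No region had a peak in white and brown and none in beige (background 0.243%). Beige alone had 6 regions (2.33%, background 1.94%), white alone 3 (1.16%, background 1.23%) and brown alone 3 (1.16%, background 0.877%). Each of these shares rests on 0 to 6 regions, and no difference from the genome was tested.

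**Figure D3:**
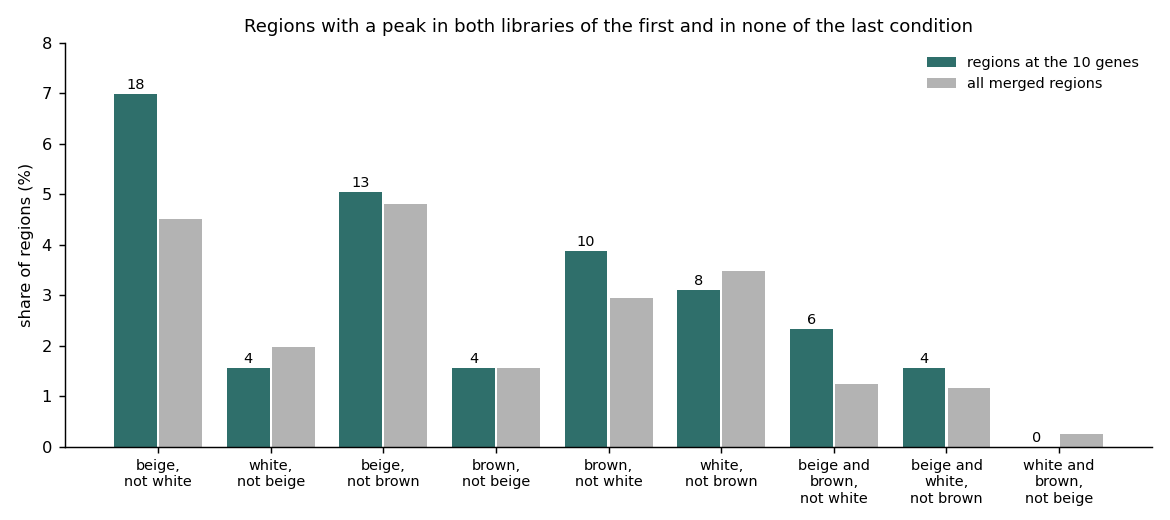
Share of regions in percent (y axis, from 0) with a peak in both libraries of the first-named and in none of the last-named condition (x axis), for the 258 regions at the 10 genes (dark, with their number) and all 194610 regions (grey). The dark bar for beige, not white reaches 6.98% against 4.5%; the remaining pairs of single conditions differ by under 1 point.

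By gene, regions in beige and not white were found at 8 of the 10 loci, and at neither Me1 nor Srebf1. Acacb had 5 of its 36 regions, Elovl6 3 of 35, Acly 2 of 21 and Fasn 2 of 18. Scd2 had 2 of 22, Mlxipl 2 of 17, Acaca 1 of 27 and Scd1 1 of 22. The share over all regions was 4.5%. Regions in white and not beige were at Acly, Acaca, Acacb and Me1, with 1 each, against 1.98% of all regions.

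**Figure D4:**
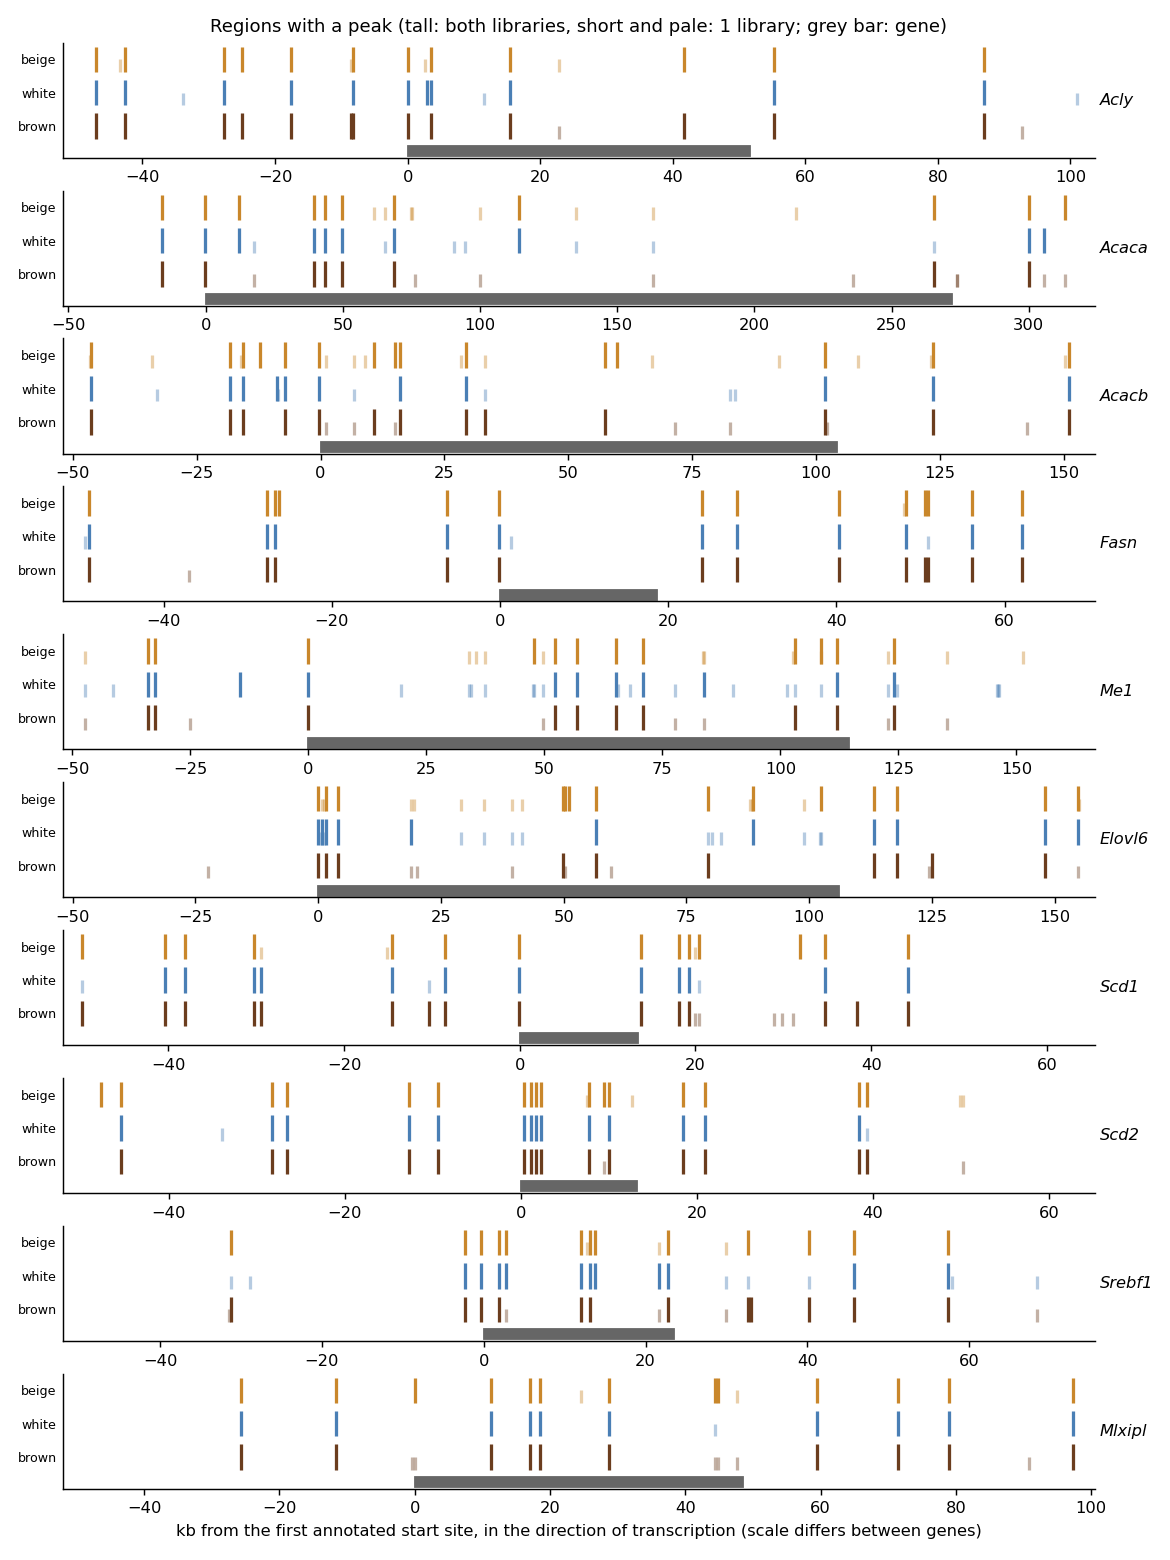
Regions with a peak at each of the 10 genes by distance in kb from the first annotated start (x axis, direction of transcription, scale differs between genes), in rows for beige, white and brown; tall lines mark a peak in both libraries, short pale lines in 1, and the grey bar the gene. Elovl6 has 3 tall beige lines near 50 kb with no white line, and Acaca a tall beige and white line at 12.3 kb and 114.1 kb with no brown line.

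Among regions with a peak in all libraries of both conditions, percentiles were higher in beige than white without overlap for 28 of 103 (27.2%, background 24.9%) and higher in white than beige for 27 (26.2%, background 22.6%). Brown was above beige in 34 of 112 (30.4%, background 23.4%) and beige above brown in 32 (28.6%, background 27.1%). Brown was above white in 26 of 98 (26.5%, background 22.4%) and white above brown in 20 (20.4%, background 24.1%). The largest departure from the share over all regions was that of brown above beige.

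The balance between directions moved with the processing. Between beige and white the counts of 28 and 27 became 36 higher in beige (background 25.9%) and 16 higher in white (21.8%) of 103 when ranked by -log10 q. With a q value under 0.00001 they were 29 (29.2%) and 17 (18.9%) of 93. Between brown and beige the counts of 34 and 32 became 22 higher in brown (18.8%) and 41 higher in beige (31.8%) of 112 by -log10 q. With equally long lists they were 43 (29.9%) and 23 (22.0%) of 110. The direction that was more frequent between brown and beige thus turned with the setting, over all regions as well as at the 10 genes.

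Of the 24 partners, regulators and neighbouring steps of the pathway, 23 had a promoter peak in all 6 libraries, against 64.2% of all protein-coding genes. The exception was Thrsp, the thyroid hormone-responsive gene whose product is linked to lipogenesis. It had a promoter peak in beige at 41.6 and 51.6 and in brown at 56.1 and 67.0, and none within 1 kb of a start in either white library. With summits up to 3 kb from a start, all 24 genes, Thrsp among them, had a peak in all 6 libraries. Of all protein-coding genes, 0.542% had a promoter peak in beige and not white and 0.46% in brown and not white. Mid1ip1, a paralogue of Thrsp, went the other way: its promoter ranked at 73.3 and 68.9 in beige, 85.6 and 83.7 in white and 78.5 and 82.8 in brown, so beige was lowest.

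**Figure D5:**
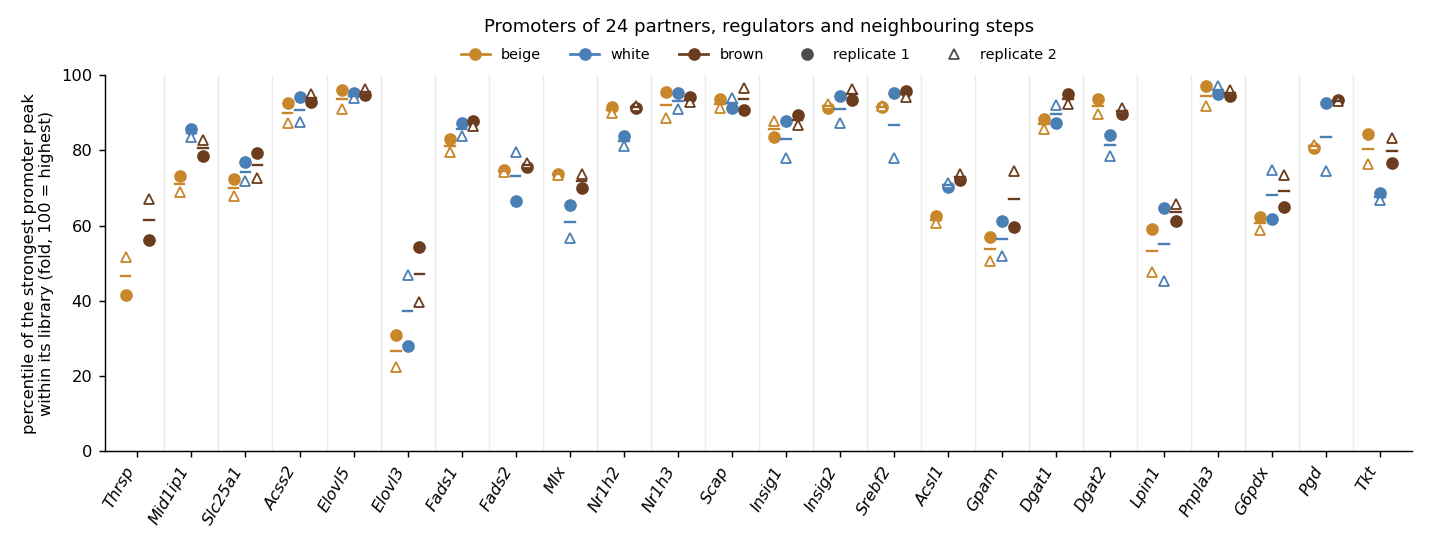
Percentile of the strongest promoter peak within its library (y axis, 0 to 100) for 24 further genes of the pathway (x axis); points are libraries, bars the mean of a condition. Thrsp has no white point, and Mlx, Nr1h2, Dgat2 and Tkt lie lower in white than in beige.

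Without overlap, 15 of these genes were higher in brown than beige and 0 were higher in beige than brown, against 33.1% and 17.8% of all promoters. Between beige and white, 4 were higher in beige and 3 in white, against 28.3% and 19.9%. The 4 were Mlx, the partner of ChREBP (73.7 and 73.5 against 65.6 and 56.6), Nr1h2, which encodes LXRβ (91.6 and 90.1 against 83.7 and 81.2), Dgat2, which makes triglyceride (93.6 and 89.8 against 84.1 and 78.6), and Tkt, of the pentose phosphate pathway (84.4 and 76.4 against 68.7 and 66.7). The 3 were Mid1ip1, Fads1, a fatty acid desaturase (83.0 and 79.5 against 87.3 and 83.9), and Acsl1, which activates fatty acids (62.5 and 60.6 against 70.2 and 71.5). Medians over the list were 81.9 ± 2.0 in beige, 82.1 ± 4.9 in white and 87.6 ± 1.4 in brown (SD, n = 2). All of these values are by fold, and the list was not ranked by -log10 q. By that measure 15.2% of all promoters were higher in brown than beige and 34.3% higher in beige than brown.

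The cell type of the cultures was checked at promoters, which are no measure of expression. All 10 adipocyte genes examined had a promoter peak in all 6 libraries. Of these, 4 were higher in white than beige without overlap (Pparg, Fabp4, Plin1 and Lpl) and 0 higher in beige than white, against 19.9% and 28.3% of all promoters, and 7 were higher in brown than beige, against 33.1%. Of 7 brown adipocyte genes 6 had a peak in all libraries. The exception was Ucp1, the uncoupling protein, with a peak in both brown libraries alone (9.12 and 4.23). Of 6 macrophage genes Adgre1, Cd14 and Cd68 had a peak in all libraries, Ptprc in white replicate 1 alone, and Csf1r and Itgam in none. Adgre1, which encodes F4/80, ranked at 52.8 and 57.5 in beige, 21.7 and 59.8 in white and 29.4 and 32.0 in brown. Of 4 endothelial genes Pecam1, Tek and Kdr had a peak in all, each of them higher in white than beige without overlap, and Cdh5 had none. Of 4 progenitor genes Pdgfra, Dpp4 and Cd34 had one in all, of which Dpp4 and Cd34 were higher in white than beige, and Ly6a had none. Promoters of Pparg, Fabp4, Plin1, Lpl, Pecam1, Tek, Kdr, Dpp4 and Cd34 thus ranked higher in white than beige. So did those of Fasn, Elovl6, Scd1 and Mlxipl and that of the macrophage gene Cd68. The brown adipocyte genes Cidea and Prdm16 were higher in beige than white. Beige and white overlapped at the remaining marker promoters with values in both. All of these ranks are by fold. The part of other cells in the values above was not tested.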

How the data were processed

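ATAC-seq was available as 1 peak list for each of 6 libraries, grouped by the labels into beige, white and brown (n = 2 each). The authors trimmed reads with Trimmomatic 0.36, used BWA 0.7.17 for alignment to mm10, and MACS2 2.2.8 to call peaks in each library alone at a q value under 0.05; these settings are stated for beige and white, and for the brown libraries the labels name BWA and MACS2 without a version. The values deposited by the authors are the fold enrichment, a ratio of the pileup at a summit over the local background, and the -log10 q of the summit; the lists hold no counts. The study lists mapped reads for the beige and white libraries, more for white, and depth of the brown libraries is not given in the sources used here; the counting error of a peak cannot be had from the lists.

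Intervals were counted once, at the summit of highest -log10 q, and promoters likewise. Intervals of the 6 lists that overlapped by at least 1 bp were joined, and a region belonged to a gene if a summit lay within 50 kb of it. Starts, exons and strands came from GENCODE M21 and sequence from the GRCm38 reference. Promoter peaks had a summit within 1 kb of any annotated start. Motifs were searched over the 100 bases to each side of a region's highest summit. Python 3.11.15, numpy 2.4.6 and pandas 2.3.3 were used, and the joining, ranking and classes were tested on simulated data. No test between conditions was made. Alternatives covered the q threshold, list length, window, joining rule, promoter width, start sites, rank by -log10 q and each library left out.

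Genes were named as the 10 members, with all their promoters and, of their other regions, those with a peak in both libraries of one condition and none of another, ranked by the lowest -log10 q. Regions named for a wide gap in percentile or a motif, and the rule on the place of summits, were chosen after values were seen. The cutoff of 20 points between promoters was not set in advance. The members and lists were chosen with earlier results of these data known. RNA measurements of the study were not used here.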

Additional observations from a re-analysis of the deposited data

How the results depend on the processing

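All counts of peaks within 1 kb of a start, 10 of 10 members and 23 of 24 further genes in all libraries, stayed within 1.5 times under each alternative that was run. With a promoter of 3 kb the further genes numbered 24. At a q value under 0.00001 the members numbered 9, as the Elovl6 peak of brown replicate 2 had a -log10 q of 4.01. The Elovl6 differences with brown have no value at that threshold. The median promoter percentile moved with the start sites used, to 63.8 in beige, 70.5 in white and 76.2 in brown with basic protein-coding starts alone. Ranking by -log10 q gave 91.0, 89.8 and 92.2, and a q value under 0.00001 gave 70.8 in beige and 73.1 in white; leaving out a library gave 73.3 to 79.2, 77.0 to 82.7 and 79.2 to 85.9. Regions in brown and not beige numbered 2 at a q value under 0.00001 and 8 when joined by summits within 250 bp. Those in brown and not white numbered 5 at a q value under 0.00001. Those in white and not beige numbered 1 at that threshold and 1 with equally long lists, and 10 when joined by summits. Higher in beige than brown were 15 regions with a window of 20 kb and 52 with 100 kb, higher in beige than white 16 and 47, higher in white than brown 13 and 32, and higher in brown than white 40 with 100 kb, as the window holds fewer or more regions. Higher in brown than beige were 22 regions when ranked by -log10 q, against 41 higher in beige; higher in white than beige were then 16, against 36 higher in beige, and at a q value under 0.00001 17 against 29. The cause was not tested. The share over all regions was not computed for the other windows or for joining by summits. Nor was it computed for the counts by presence at other thresholds or list lengths.

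Leaving out 1 library, which leaves 1 in its group, gave 246 to 250 regions, 97 to 102 in all libraries and 6 to 12 in beige and brown and not white. It gave 18 to 43 in beige and not white, 14 to 41 in beige and not brown, 4 to 18 in brown and not beige, 10 to 27 in brown and not white, 4 to 25 in white and not beige and 8 to 33 in white and not brown. The highest values come from asking for 1 library in place of 2. No share over all regions was computed with a library left out, so these counts cannot be set beside the genome. Left out in this way after values were seen, regions higher in beige than brown were 32 to 51, in beige than white 28 to 49, in brown than beige 34 to 50, in brown than white 26 to 48, in white than beige 27 to 41 and in white than brown 20 to 36. The members' 30 differences between conditions were not followed with a library left out. Under the alternatives that kept all 6 libraries, 10 of them changed sign at least 1 time. Of the 13 whose groups did not overlap, 3 did: Elovl6, brown minus beige, to 12.2 points with a promoter of 3 kb, Mlxipl, beige minus white, to 3.21, and Srebf1, brown minus beige, to -0.873, both when ranked by -log10 q. Of the 17 whose groups overlapped, 7 did. By -log10 q these were Acly, brown minus beige (-0.356), Me1, beige minus white (0.770), and Scd2, brown minus beige (-2.29) and brown minus white (-2.35). With a promoter of 3 kb they were Mlxipl (-9.34) and Acaca (-4.24), brown minus white, the latter -0.386 with basic protein-coding starts, and with equally long lists Fasn, brown minus white (0.174). No paired analysis was possible because nothing in the labels ties libraries of the same number across conditions.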
